A study of Caenorhabditis elegans with 36 samples.

Results

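miR-72, miR-73 and miR-74 are 3 miRNA hairpins of C. elegans whose main products are grouped as 1 family, related to miR-31 of vertebrates. Their mature strands were taken by name from the count table, as every row whose name without the 5p or 3p ending is miR-72, miR-73 or miR-74. This gave 6 strands of the 437 in the table, and all 6 were among the 241 strands with enough counts to test. The strand of a hairpin with the higher mean over all libraries is called the guide, and the other the passenger. The guides were miR-72-5p, miR-73-3p and miR-74-3p, so the guide lies on the 5p arm in miR-72 and on the 3p arm in the other 2 hairpins.

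Small RNAs were sequenced from whole synchronized animals of 2 strains, wild-type N2 (WT) and HW3527, which carries ebax-1(tm2321). Both strains were untreated and kept at 25 °C. Worms plated as synchronized L1 larvae were harvested hourly, 25 to 42 h after plating, with 1 library per strain and hour, 36 in all. In WT these hours run from the late L3 stage into young adulthood, and the mutant develops about 3 h behind. Library totals were 2832088 (25 h) to 5579822 (26 h) reads in WT and 3720038 (42 h) to 8060155 (34 h) in the mutant. The labels name no separate cultures, so p-values measure the scatter of hourly libraries, and the strains cannot be told apart from their cultures or library preparations. ebax-1 is not a miRNA gene, so its lesion was not checked in these counts. In whole animals, fewer cells that make a miRNA and less of it per cell cannot be told apart either.

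A miRNA guide is carried by an Argonaute protein and finds its target mRNAs mainly through its seed, the bases near its 5′ end. Members of a family share the seed and can therefore recognise common targets. The passenger comes from the same hairpin but is mostly discarded, and is usually read as a sign of recent production. EBAX-1 is the worm counterpart of ZSWIM8, a ubiquitin ligase adaptor needed for target-directed miRNA decay. In this decay in mammals and flies, a highly complementary target leads to destruction of the Argonaute and its miRNA. In C. elegans no such target has been defined, and the authors describe the link to this form of decay as an analogy.

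In the WBcel235 annotation, mir-72 lies alone on chromosome II, between the protein-coding genes vab-19 and pqn-42 and within neither. mir-73 and mir-74 lie next to each other on chromosome X on the same strand. mir-73 overlaps no other gene, whereas mir-74 overlaps the non-coding RNAs T24D8.14 on its own strand and T24D8.16 on the opposite strand. The annotated guides are 23 nt (miR-72-5p), 23 nt (miR-73-3p) and 22 nt (miR-74-3p) long. The family therefore holds 1 stand-alone gene and 1 adjacent pair.

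The guides stood at very different read levels. miR-72-5p averaged 92070 CPM (counts scaled to a common library total) over the 36 libraries, which was the highest mean of the 437 strands. It was the most abundant strand in 21 of the 36 libraries, from 25 to 32 h in WT and in 13 of the 18 mutant libraries, and was otherwise exceeded by miR-71-5p (8 libraries), miR-82-3p (4) or miR-81-3p (3). miR-73-3p averaged 14227 CPM (rank 20) and miR-74-3p 894 CPM (rank 57). Their passengers miR-74-5p, miR-72-3p and miR-73-5p averaged 59.4, 47.0 and 32.2 CPM. Ligation and amplification favour some sequences, so CPM compares a strand between libraries more safely than it compares strands.

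In WT, miR-72-5p ranged from 68768 CPM (39 h) to 105502 CPM (25 h), with a median of 78490 CPM. In the mutant it ranged from 80947 CPM (41 h) to 124274 CPM (26 h), with a median of 98434 CPM. The mutant curve lay above the WT curve at every hour after plating from 25 to 42 h. This comparison does not correct for the slower development of the mutant, which is shifted by 3 h below. With that shift, the mutant at 34 h (97106 CPM) was below WT at 31 h (97273 CPM). The WT values dropped from 94175 CPM at 32 h to 79500 CPM at 33 h. Together the 3 guides made up 7.91% to 12.5% of a WT library (median 9.24%) and 9.02% to 14.2% of a mutant library (median 11.3%).

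miR-73-3p ranged from 8095 CPM (42 h) to 21901 CPM (28 h) in WT, with a median of 13776 CPM. In the mutant it ranged from 8669 CPM (41 h) to 17794 CPM (28 h), with a median of 13792 CPM. Both strains peaked at 28 h after plating and were lowest at the end, and every WT library from 25 to 31 h stood above the highest mutant library. With the 3 h shift used below, mutant 28 h is set beside WT 25 h, so the peaks do not coincide there. The mutant library at 34 h, with 10601 CPM, fell below both of its neighbours (13829 and 13756 CPM).

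miR-74-3p ranged from 504 CPM (38 h) to 1446 CPM (26 h) in WT, with a median of 832 CPM. In the mutant it ranged from 493 CPM (39 h) to 1264 CPM (29 h), with a median of 967 CPM. WT at 25, 26 and 27 h (1312, 1446 and 1422 CPM) stood above the highest mutant library. At later hours the curves crossed several times. Single hours departed from their neighbours, as in WT at 30 h. There 757 CPM (95% Wilson interval 733 to 783) stood between 994 CPM (964 to 1024) and 1012 CPM (981 to 1043). These intervals cover the counting of reads only, since reads carried no molecular identifiers, and the share of library preparation in this scatter was not tested.

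**Figure D1:**
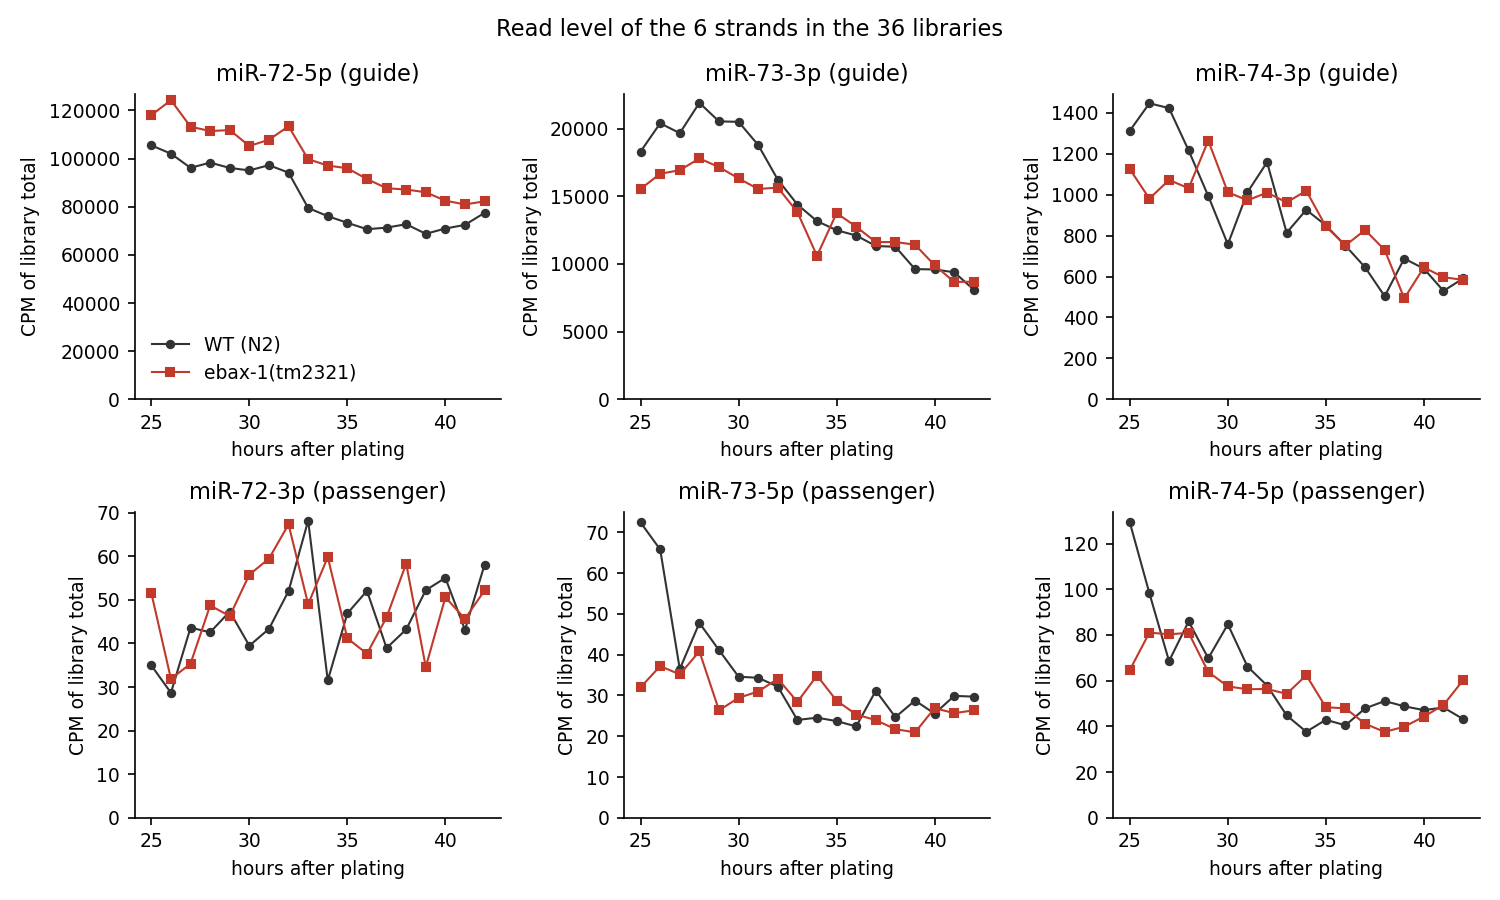
Read level of each strand in CPM of the library total (linear axes starting at 0) against hours after plating, with WT as dark circles and ebax-1(tm2321) as red squares, 1 point per library. Without correction for the slower development of the mutant, miR-72-5p lies higher in the mutant at every hour. miR-73-3p and miR-74-3p fall over time. The WT curve of miR-73-3p is above the mutant curve up to 34 h, and the curves of miR-74-3p cross several times.

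The passengers were read 99 times or more in the case of miR-72-3p, 76 times or more in miR-73-5p and 135 times or more in miR-74-5p, per library. miR-72-3p ranged from 28.7 CPM (26 h) to 68.2 CPM (33 h) in WT (median 43.5 CPM) and from 31.9 CPM (26 h) to 67.3 CPM (32 h) in the mutant (median 48.8 CPM). miR-73-5p ranged from 22.4 CPM (36 h) to 72.4 CPM (25 h) in WT (median 30.5 CPM) and from 21.0 CPM (39 h) to 40.8 CPM (28 h) in the mutant (median 28.6 CPM). miR-74-5p ranged from 37.7 CPM (34 h) to 129 CPM (25 h) in WT (median 49.9 CPM) and from 37.6 CPM (38 h) to 81.1 CPM (26 h) in the mutant (median 56.3 CPM). The 2 passengers of the X-linked pair had their highest values in WT at 25 and 26 h, and miR-72-3p had its lowest at 26 h after plating in both strains, without a shift of the mutant.

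To ask which members differ without EBAX-1, the mutant time was reduced by 3 h, since the mutant develops more slowly, which aligned WT 25 to 39 h with mutant 28 to 42 h in 15 hours (30 libraries). Each difference below is mutant minus WT on the log2 scale, ± SE, from edgeR's quasi-likelihood F-test on counts scaled by TMM, a factor that puts the typical strand of each library at the same level. A strand was called at a Benjamini-Hochberg adjusted p under 0.01 over all 241 strands.

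miR-72-5p was higher in the mutant by 0.36 ± 0.03, or 1.28-fold (edgeR adjusted p = 6.52e-10). It was higher in 15 of 15 aligned hours, with hourly differences from 0.22 (aligned 30 h) to 0.55 (aligned 29 h). Among all 241 strands, 24.1% were called higher and 26.6% lower in this test, and the difference of miR-72-5p ranked 49 from the top. TMM-scaled levels of miR-72-5p were 69346 to 89021 CPM in the 15 WT libraries and 89420 to 128251 CPM in the 15 mutant libraries, which did not overlap. Of all strands tested, 2.49% had every mutant library above every WT library and 1.24% had every one below. In CPM of the library total the strains overlapped, at 68768 to 105502 CPM in WT against 80947 to 113426 CPM in the mutant.

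The passenger miR-72-3p was also higher, by 0.38 ± 0.11 or 1.30-fold (edgeR adjusted p = 0.00323), in 13 of 15 aligned hours. Its hourly differences spread from −0.57 (aligned 36 h) to 0.89 (aligned 26 h), far more widely than those of its guide. With library totals as the scaling, its difference was 0.18 and the call was lost (edgeR adjusted p = 0.112). The call was lost too with limma on the authors' log2 transformation, which also scales by library totals (0.18, limma adjusted p = 0.104). Both strands of miR-72 were thus called higher with TMM, and only the guide was called under every scaling tried.

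The guide miR-73-3p differed by −0.09 ± 0.05 (edgeR adjusted p = 0.131) and was higher in the mutant in 3 of 15 aligned hours. The guide miR-74-3p differed by 0.03 ± 0.07 (edgeR adjusted p = 0.753), being higher in 8 of 15 aligned hours. The passengers miR-73-5p (−0.10 ± 0.09, edgeR adjusted p = 0.360) and miR-74-5p (−0.03 ± 0.07, edgeR adjusted p = 0.713) did not pass either. None of the 4 strands of the X-linked pair was therefore called, and their TMM-scaled ranges overlapped between strains.

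These values depend on the scaling, because the median difference of all strands tested was −0.03 with TMM and −0.23 with library totals. Relative to that median, miR-72-5p stood at 0.39 under both scalings, miR-73-3p at −0.06 under both and miR-74-3p at 0.06 under both. Measured against library totals, miR-72-5p differed by 0.16 and was still called, miR-73-3p by −0.29 and was called lower (edgeR adjusted p = 5.66e-06), and miR-74-3p by −0.17 without a call (edgeR adjusted p = 0.0225). The passengers miR-73-5p and miR-74-5p were called lower with library totals too, by −0.30 and −0.23. With library totals, 34 of the 241 strands were called higher and 116 lower, against 58 and 64 with TMM. The order of the guides, with miR-72-5p above miR-74-3p and miR-73-3p lowest, was the same with both. A scaling moves all strands of a library together, so this order and the values relative to the median could hardly have differed.

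**Figure D2:**
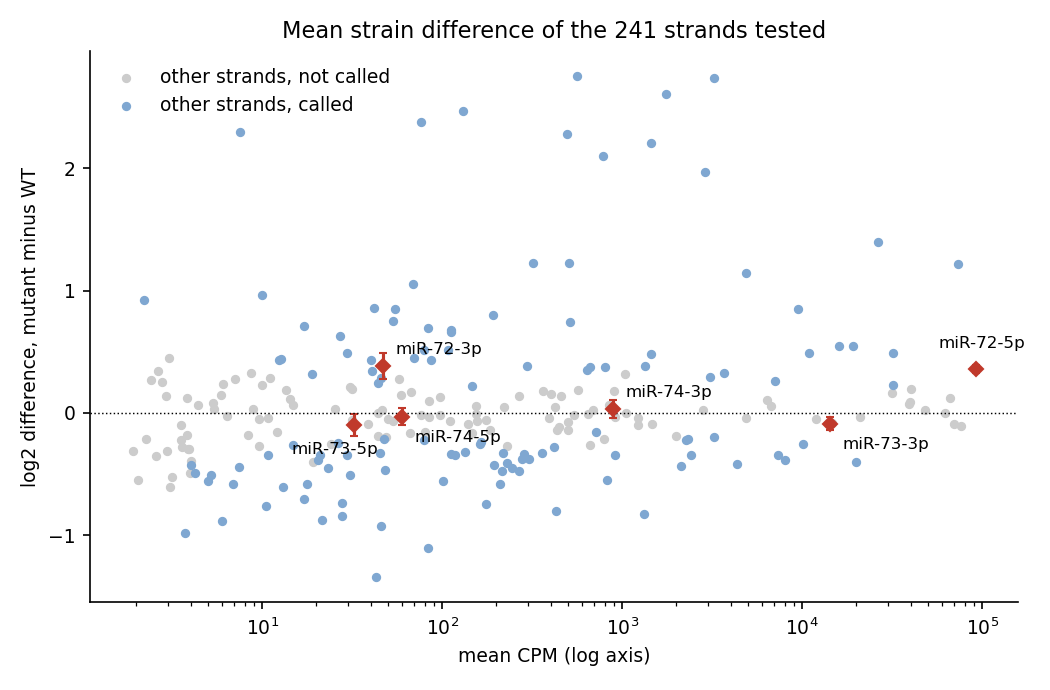
Mean strain difference (log2, mutant minus WT, TMM scaling) of the 241 strands tested against mean CPM (log axis), with other strands in blue where called and grey where not, and the 6 strands of the family as red diamonds with SE bars. miR-72-5p, at the far right, and miR-72-3p lie above 0, and the 4 strands of miR-73 and miR-74 lie at about 0.

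A joint test of the strain term and its products with the time curve called miR-72-5p (edgeR adjusted p = 7.16e-06) and none of the other 5 strands, whose adjusted p values were 0.0246 (miR-72-3p), 0.0321 (miR-73-5p), 0.0852 (miR-73-3p), 0.114 (miR-74-5p) and 0.205 (miR-74-3p). The passengers gained calls in this test under some of its 9 alternatives, miR-73-5p in 4 (library totals, limma, no time shift and a shift of 4 h), miR-74-5p in 3 and miR-72-3p in 2. This test called 45.2% of all strands. A difference that changes over time was called in 7.47% of all strands and in 0 of the 6 members, where the lowest edgeR adjusted p was 0.0858 (miR-73-5p, unadjusted p 0.016). For miR-72-5p it was 0.955, the hourly differences remaining between 0.22 and 0.55.

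The same held when the aligned hours were divided into windows of 25 to 29, 30 to 35 and 36 to 39 h. miR-72-5p was higher in the mutant by 0.38 ± 0.07 in the early window (edgeR adjusted p = 0.000233), by 0.34 ± 0.06 in the middle window (0.000211) and by 0.34 ± 0.07 in the late window (0.00153). With library totals the early and middle differences were 0.14 and 0.13 and no longer passed (edgeR adjusted p = 0.0242 and 0.0256), while the late one did. The shares of all strands called higher were 15.4% (early), 13.3% (middle) and 10.8% (late), and called lower 13.3%, 14.1% and 8.71%.

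The passenger miR-72-3p was called in the early window (0.74 ± 0.17, edgeR adjusted p = 0.00217) but not in the middle (0.29 ± 0.16, 0.132) or late (0.08 ± 0.19, 0.812) window. In that early window the library-total value was 0.50 and missed the threshold (edgeR adjusted p = 0.0208), and with no filter the middle window passed as well (0.53, 0.00467). Its middle-minus-early difference of −0.44 ± 0.23 did not pass (edgeR adjusted p = 0.363), so a decline of the difference was not established. Of all strands, 0% passed in middle minus early (0 of 241 in edgeR, 38 at an unadjusted p under 0.05) and 0.415% in late minus middle (26 at an unadjusted p under 0.05).

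None of the strands of miR-73 and miR-74 was called in any window with TMM scaling. The lowest value was that of miR-73-5p in the early window, −0.44 ± 0.14 (edgeR adjusted p = 0.0177), where its hourly difference reached −1.10 at aligned 26 h, and miR-74-5p in the same window was at −0.26 ± 0.12 (0.0993). With library totals both early values were called, at −0.67 (miR-73-5p, edgeR adjusted p = 0.000257) and −0.50 (miR-74-5p, 0.00128). The guides miR-73-3p and miR-74-3p lay between −0.13 and 0.12 in the 3 windows with TMM, and miR-73-3p in the middle window was called with library totals (−0.35, edgeR adjusted p = 0.00241).

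**Figure D3:**
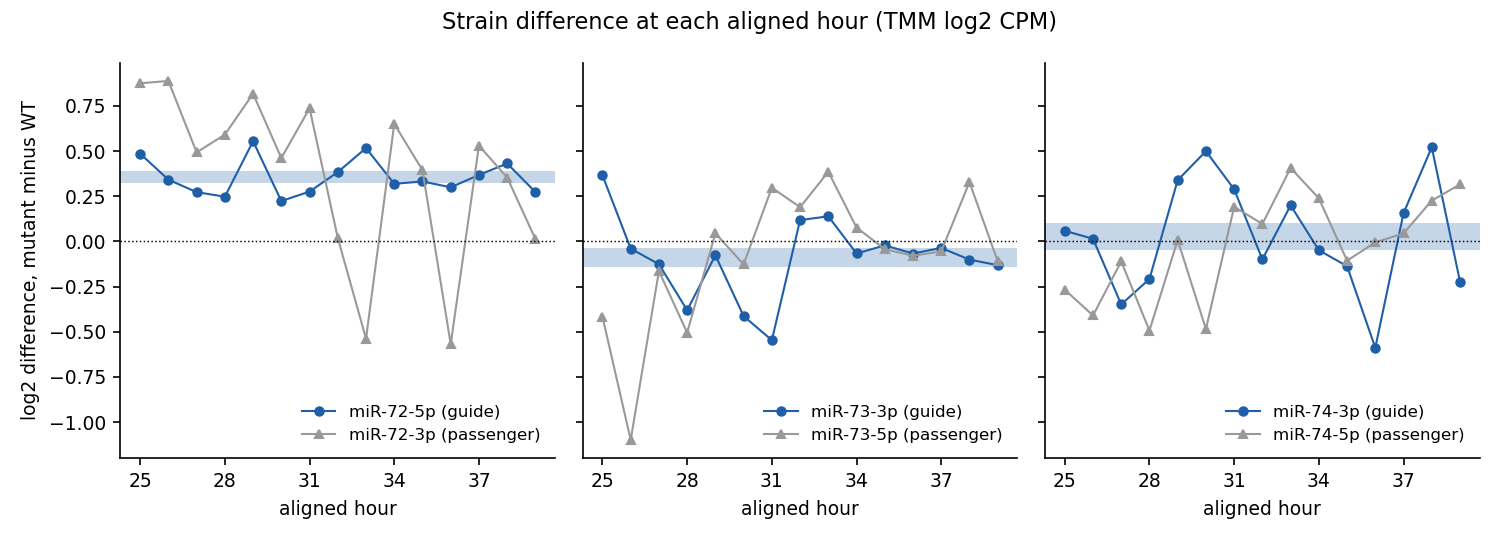
Log2 difference of mutant minus WT in TMM-scaled CPM at each of the 15 aligned hours, with guides as blue circles, passengers as grey triangles, and the band giving the mean difference of the guide ± SE. The miR-72-5p points lie between 0.22 and 0.55, whereas those of miR-73-3p and miR-74-3p lie on both sides of 0.

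Ratios between guides within a library do not depend on the scaling, and were used to ask whether the family members differed in their response. Strain was swapped within aligned hours in all 32768 ways, as an exact two-sided permutation test over the 15 hours, with adjustment over 3 ratios. Hours of 1 time course are not separate cultures, so this p measures the scatter between hours.

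Reads of miR-72-5p per read of miR-73-3p were 4.49 (28 h) to 7.15 in the aligned WT libraries and 6.26 (28 h) to 9.46 (42 h) in the aligned mutant libraries. Of the 15 mutant libraries 10 exceeded the highest WT library, and the ranges overlapped. The mean log2 ratio was 2.46 ± 0.19 (SD, n = 15) in WT and 2.91 ± 0.19 in the mutant, or 5.51 against 7.52 reads. The difference of 0.45 (SD 0.17) had 1 sign in 15 of 15 hours, from 0.12 (aligned 25 h) to 0.82 (aligned 31 h), with an exact p of 6.1e-05, the smallest the test allows (adjusted p = 0.000183, permutation).

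Reads of miR-72-5p per read of miR-74-3p were 67.6 to 144 in the aligned WT libraries and 88.5 to 174 in the mutant. The mean log2 ratio was 6.53 ± 0.29 (SD, n = 15) in WT and 6.86 ± 0.24 in the mutant, or 92.4 against 116 reads. The difference of 0.33 (SD 0.29) was positive in 12 of 15 hours, aligned 30, 31 and 38 h being the exceptions (exact permutation p = 0.00128, adjusted p = 0.00192). The ratio of miR-73-3p to miR-74-3p did not pass, with 16.8 against 15.4 reads, a difference of −0.12 (SD 0.42) and 6 of 15 hours positive (exact permutation p = 0.284). miR-72-5p thus rose relative to both X-linked guides, and no shift between those guides was detected, with single hours at −0.91 (aligned 30 h) and 0.52 (aligned 36 h).

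**Figure D4:**
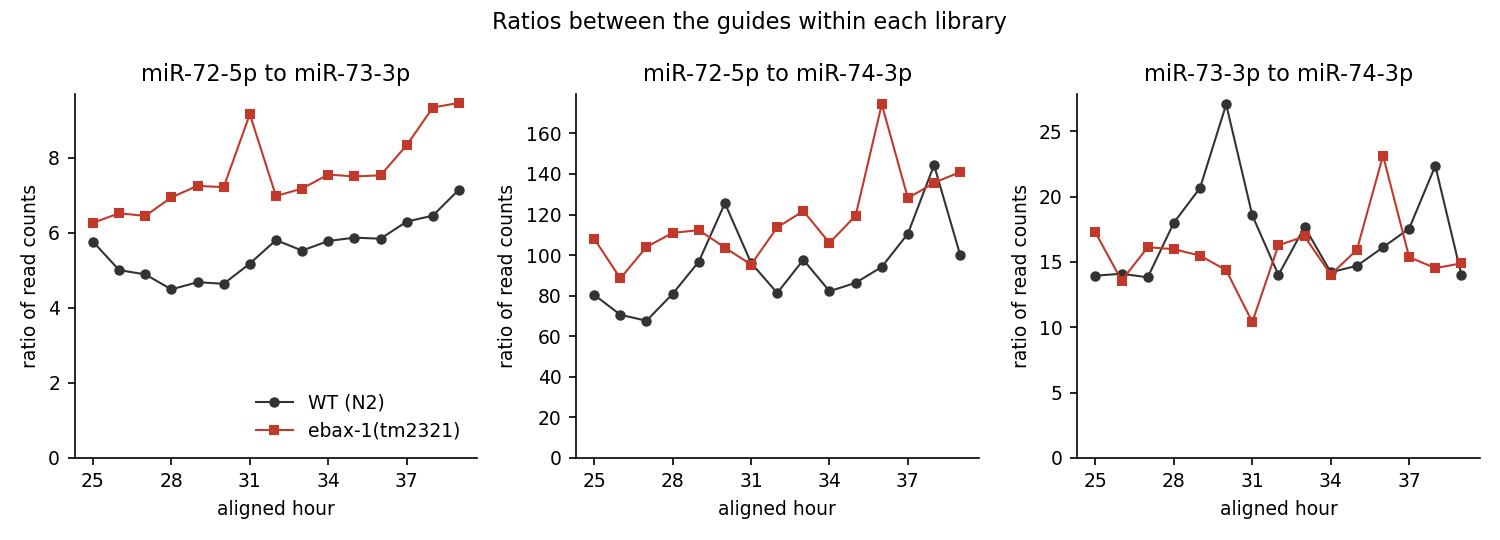
Ratio of the read counts of each pair of guides within a library against aligned hour (linear axes from 0), with WT as dark circles and ebax-1(tm2321) as red squares. The ratio of miR-72-5p to miR-73-3p is higher in the mutant at all 15 hours, and that of miR-73-3p to miR-74-3p crosses.

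Within the family, miR-72-5p supplied most reads at every hour. Its share of the guide reads ranged from 81.0% (28 h) to 89.9% (42 h) in WT (median 84.4%) and from 85.5% (28 h) to 89.9% (42 h) in the mutant (median 87.4%). miR-73-3p supplied 9.39% to 18.03% in WT (median 14.6%) and 9.50% to 13.7% in the mutant (median 11.9%). miR-74-3p supplied 0.596% to 1.21% in WT (median 0.867%) and 0.504% to 0.970% in the mutant (median 0.779%). At 42 h after plating, the last hour collected, the shares of miR-72-5p in the strains were the same to 3 digits. With the 3 h shift, mutant 42 h stands beside WT 39 h, where the shares were 89.9% and 87.0%.

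To see whether a strain difference lay in the guide alone, guide to passenger ratios were compared (log2 of TMM-scaled counts + 8, limma with an intensity trend, 86 hairpins). In miR-72 the ratio differed by −0.02 ± 0.10 (limma adjusted p = 0.927), in miR-73 by −0.01 ± 0.10 (0.939) and in miR-74 by 0.05 ± 0.10 (0.696). None was called, against 36.0% of all hairpins. The SE of 0.10 on the log2 scale bounds what these comparisons could show.

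Averaged over 18 hours, 1868 reads of miR-72-5p were counted per read of miR-72-3p in WT and 2085 in the mutant. For miR-73 these were 431 and 458 guide reads per passenger read, and for miR-74 14.7 and 15.5. Hourly WT values were 1166 (33 h) to 3559 (26 h) in miR-72, 253 (25 h) to 600 (33 h) in miR-73 and 8.94 (30 h) to 24.6 (34 h) in miR-74. The strands of miR-74 were thus much less unequal in reads than those of its neighbour miR-73. Their passengers had more similar levels than their guides, with 1.46 to 2.45 reads of miR-74-5p per read of miR-73-5p in WT and 1.65 to 2.42 in the mutant, against 13.7 to 27.1 (WT) and 10.4 to 23.2 (mutant) reads of miR-73-3p per read of miR-74-3p.

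Time was tested with edgeR in the 18 libraries of 1 strain at once. The size of a change is the mean log2 TMM-scaled CPM of the last 3 hours minus that of the first 3. These are hours after plating without the 3 h shift of the mutant, so sizes are not matched in development between strains. Sizes are to be read against the median of all 244 strands kept, −0.12 in WT and −0.08 in the mutant. The test called 72.5% of 218 strands in WT and 59.0% of 222 in the mutant. miR-73-3p fell by 0.79 on the log2 scale in WT (edgeR adjusted p = 1.97e-07) and by 0.64 in the mutant (0.000806). miR-74-3p fell by 0.93 in WT (edgeR adjusted p = 7.46e-05) and by 0.58 in the mutant (0.00461), a call lost without the mutant library at 42 h (0.0226). In linear terms miR-73-3p fell by 42.1% and miR-74-3p fell by 47.5% in WT.

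miR-72-5p changed with time in WT (edgeR adjusted p = 0.000272), but its late level differed from its early one by −0.14, close to the median strand. With library totals this was −0.46 against a median of −0.44, and with no filter −0.02 against a median at 0. In the mutant its difference was −0.32 and the time test did not pass (edgeR adjusted p = 0.247), although it did with library totals (−0.53, adjusted p = 3.61e-06). The passenger miR-72-3p had positive values of 0.86 in WT and 0.56 in the mutant that did not pass (edgeR adjusted p = 0.0275 and 0.0501). The WT value passed with 4 spline components (edgeR adjusted p = 0.00791) and without the WT library at 33 h (0.00916). Within the aligned hours miR-72-3p was at 0.64 in WT and 0.12 in the mutant, and miR-72-5p at −0.20 and −0.28. miR-73-5p and miR-74-5p fell in WT, by 0.65 (edgeR adjusted p = 5.15e-05) and 0.72 (1.39e-06). In the mutant miR-74-5p fell by 0.34 (edgeR adjusted p = 0.000392), and miR-73-5p, at −0.18, did not pass (0.0633). With library totals miR-73-5p was called in the mutant too (−0.40, edgeR adjusted p = 0.00343), and with 4 spline components miR-74-5p was not (0.0196).

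Among strands outside the family with a mean at least as high as that of miR-74-3p, 54 in number, the median late-minus-early value was 0.24 in WT and 0.13 in the mutant. The 3 guides were all below these medians. In the same 54 strands 18 were called higher and 12 lower by strain, with a median difference of 0.04.

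Guide to passenger ratios also changed with time, in a test added after the data were seen. In WT they were called for miR-73 (limma adjusted p = 0.000321) and miR-74 (0.00833), against 43.0% of 79 hairpins, and not for miR-72 (0.0154). In the mutant 35.0% of 80 hairpins were called and none of the 3 (limma adjusted p = 0.0114 for miR-72, 0.0116 for miR-74 and 0.0322 for miR-73). Late minus early by hours after plating, the log2 ratio of read counts in miR-72 was at −1.01 in WT and −0.88 in the mutant. These values were the farthest from 0 of the 3 hairpins in both strains. For miR-73 the late-minus-early ratio was −0.13 and −0.45, and for miR-74 −0.20 and −0.24.

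**Figure D5:**
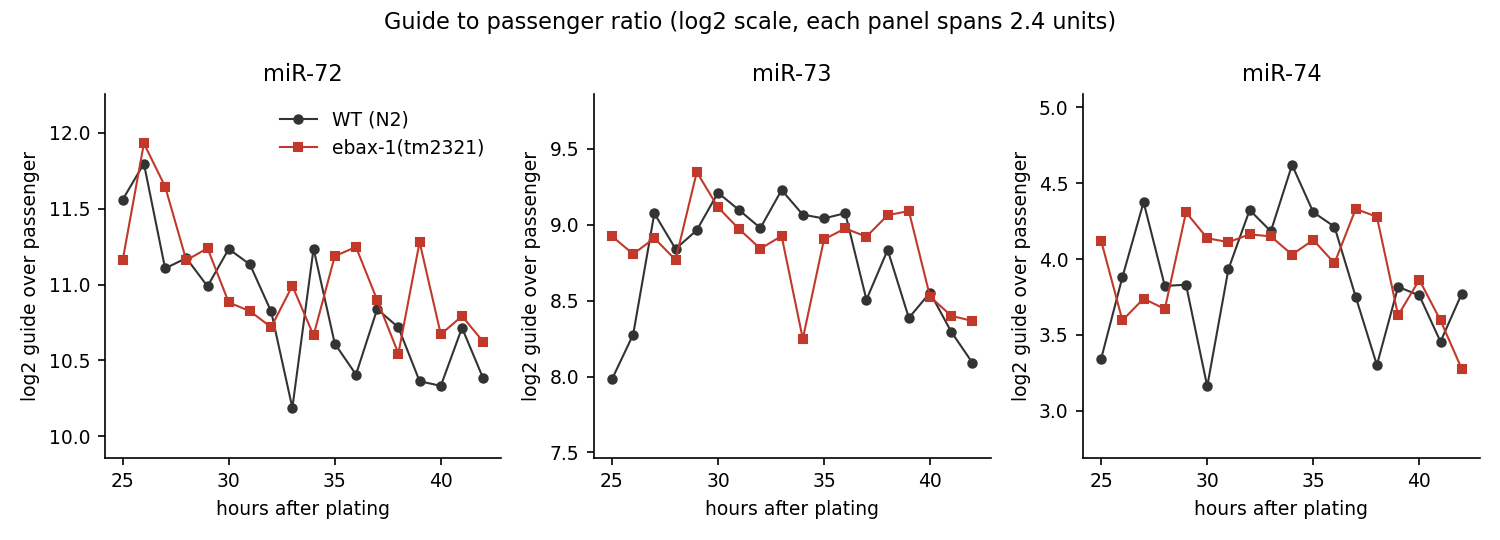
Guide to passenger ratio of read counts on the log2 scale against hours after plating, for WT (dark circles) and ebax-1(tm2321) (red squares). The vertical axes have the same span but a different range. The ratio of miR-72 is highest at 26 h in both strains, that of miR-73 is lowest at 25 h in WT, and in none of the 3 hairpins do the strains stand apart.

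No member passed a test for a 7 h rhythm, the period of the larval moults, over 11 aligned hours (edgeR, 22 libraries). The nearest was miR-73-3p in WT, with a log2 amplitude of 0.21 (edgeR adjusted p = 0.0325), and the next lowest adjusted p in WT was 0.143 (miR-74-5p). Of 243 strands 12.8% were called rhythmic in WT and 1.65% in the mutant, with median amplitudes of 0.23 and 0.15. A rhythm that differs between strains was called in 0% of the 243 strands, with 37 at an unadjusted p under 0.05.

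Over the 36 libraries, Pearson's r of log2 levels was 0.70 between the X-linked guides miR-73-3p and miR-74-3p, 0.49 between miR-72-5p and miR-73-3p and 0.52 between miR-72-5p and miR-74-3p. Within WT (18 libraries) these were 0.68, 0.61 and 0.40, and within the mutant 0.71, 0.88 and 0.74. The hours of a time course share its trend, so these are descriptions without a test. The X-linked pair had the most even values between strains, but in the mutant the closest pair was miR-72-5p with miR-73-3p, which lie on different chromosomes.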

How the data were processed

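Reads from total RNA had been prepared with an adapter-ligation small RNA kit, size-selected and sequenced as single ends. The authors trimmed adapters with QuasR, aligned reads to ce10 with Bowtie (version not given in the sources used here; up to 100 matching positions kept) and counted reads starting within 3 bp of the 5′ end of each miRBase mature strand, on its strand. The deposited counts are whole numbers and not normalized. The deposited log2 values were made by the authors from counts scaled to the mean total, plus 8; they served only as a check. Reads may be shared between strands of nearly the same sequence, and sequences were not compared here.

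Counts were tested in R 4.3.3 with edgeR 4.0.16 (filterByExpr by strain, minimum count 10, TMM, cubic B-spline of time with 6 components, quasi-likelihood F-tests, Benjamini-Hochberg threshold 0.01); windows used the aligned hour as a factor. Ratios of guide to passenger were tested with limma 3.58.1 with a pseudocount of 8, and their hourly values are ratios of read counts. Log2 levels by hour are TMM-scaled CPM with a prior count of 2. Alternatives were library totals, DESeq2 1.42.0 (size factors, and its own test), no filter and limma on log2 counts scaled to library totals. Further alternatives were other time shifts, 4 spline components, the aligned hour as a factor and leaving out each library. The fits across all strands were first tested on simulated counts.

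The strands named are those of the 3 hairpins, the 3 strands most correlated with each guide, and, chosen after the annotation was seen, miR-75. Strands sharing the seed were to be named too, which was not done because sequences were not used here. The members, lists and tests were chosen with earlier results of these data known. Tests of time within the guide to passenger ratio, and leave-outs for time and guide ratios, were added after seeing the data. Annotation is from WBcel235 and the files use ce10, so no coordinates are given.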

Additional observations from a re-analysis of the deposited data

How the results depend on the processing

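The higher miR-72-5p level was called in all 10 alternatives of scaling, filter, tool, time shift and time term (0.16 to 0.53). It was also called in all 30 leave-outs of a library (0.35 to 0.42), and its joint test was called in all 9 alternatives. Without WT 33 h the difference was 0.35, and without mutant 38 h or mutant 42 h it was 0.36. Every other leave-out gave 0.39 to 0.42, so the main value of 0.36 stood near the low end. The ratios of miR-72-5p to miR-73-3p and to miR-74-3p kept their calls with a shift of 4 h and with none (0.34 to 0.49 and 0.24 to 0.34) and in all 15 leave-outs of an hour (0.42 to 0.47 and 0.29 to 0.37).

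Other values, mostly near 0, changed sign or call. The limma setting was run on log2 counts scaled to library totals, so it repeats that scaling and is not a separate check of it. The cause of the changes was not tested. For miR-73-3p the strain difference was −0.29 and called with library totals and with limma (joint adjusted p = 1.85e-05 and 1.53e-05), 0.080 with no filter and 0.10 with no shift. For miR-74-3p it was −0.17 with library totals and with limma, 0.19 and called with no shift (edgeR adjusted p = 0.00819, joint 0.0092) and −0.030 with a shift of 4 h. For miR-74-5p it was 0.00049 with DESeq2 size factors, 0.13 with no filter, 0.12 with no shift and 0.017 with a shift of 2 h, and −0.055 to 0.060 over leave-outs. Of the 30 leave-outs, 27 turned the sign of miR-74-5p to positive, against −0.03 in the main fit. For miR-73-5p the strain difference was 0.065 with no filter, 0.00101 with no shift and −0.12 to 0.00699 over leave-outs. Leave-outs gave −0.10 to −0.0087 for miR-73-3p and 0.00968 to 0.10 for miR-74-3p.

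In the windows, library totals and limma turned the sign of miR-73-5p (middle −0.086 and −0.080, late −0.095 and −0.090), miR-74-3p (middle −0.10 with both), miR-74-5p (middle −0.16 and −0.15) and miR-72-3p (late −0.035 and −0.032). The early and middle calls of miR-72-5p were lost with limma (0.14 and 0.13, limma adjusted p = 0.023 and 0.0249), as with library totals. Its late call was kept (0.23, limma adjusted p = 0.00359). With no filter, miR-73-3p was at 0.035, 0.10 and 0.096 in the early, middle and late windows, and miR-74-3p at 0.058 (early) and 0.15 (late). The time change of miR-72-5p in the mutant was called with library totals and with limma (−0.53 with both), and that of miR-74-3p in the mutant was −0.66 to −0.52 over leave-outs.

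The labels give no replicate numbers to serve as a block. Aligned hours were paired in the window and guide ratio tests and, as an alternative, in the mean difference, which changed no call (miR-72-5p 0.36, miR-72-3p 0.39). Leaving 1 culture out was not possible with 1 time course per strain. Mean counts per library were 223 (miR-72-3p), 152 (miR-73-5p) and 282 (miR-74-5p), a counting SD of 6.7%, 8.1% and 6.0% of the mean, which limits what hourly values of the passengers can show, against 0.15% for miR-72-5p.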

Other observations

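The strands outside the family whose log2 levels were most like those of each guide over the 36 libraries differed between guides. For miR-72-5p they were miR-4807 (r = 0.93), miR-43-3p (0.92) and miR-230-3p (0.92), which were themselves higher in the mutant by 2.30 ± 0.13, 2.47 ± 0.13 and 2.10 ± 0.08 on the log2 scale, against 0.36 for miR-72-5p. Within WT those correlations were 0.56, 0.64 and 0.59, and within the mutant 0.84, 0.66 and 0.75. For miR-73-3p they were miR-230-5p (0.93), miR-245-3p (0.89) and miR-57-5p (0.89), and for miR-74-3p miR-231-3p (0.92), miR-242 (0.90) and miR-90-5p (0.87). miR-230-5p and miR-231-3p kept values of 0.93 and 0.97 within WT and 0.92 and 0.88 within the mutant. The strands of the miR-230 hairpin thus appeared beside different members of the family, the 3p strand beside miR-72-5p and the 5p strand beside miR-73-3p.

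miR-75, whose position relative to mir-74 was not extracted here, had other late-minus-early values than the guides of the adjacent pair. Late minus early, miR-75-3p was at 0.66 in WT and 0.55 in the mutant and miR-75-5p at 0.75 and 0.27 on the log2 scale, whereas the guides of miR-73 and miR-74 fell in both strains. Over the 36 libraries r with miR-73-3p was −0.80 for miR-75-3p and −0.54 for miR-75-5p, and with miR-74-3p −0.44 and −0.38. By strain, miR-75-5p was higher in the mutant by 0.22 ± 0.07 (edgeR adjusted p = 0.00721, 11 of 15 aligned hours) and miR-75-3p was at −0.06 ± 0.09 (0.596).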
